A study of Mus musculus with 18 samples.

Results

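The tripartite motif (TRIM) genes Trim21, Trim25, Trim26, Trim14, Trim30a, Trim30d, Trim34a and Trim12c were followed across B16F10 tumors injected with a STING agonist. They were chosen by name as interferon-induced members of the family, with earlier results of these tumors in view, and are 8 of the 50600 genes in the count table. All 8 passed the filter on low counts, which left 16927 genes. The levels with and without agonist therefore describe how the genes were selected and carry no test here. Adjusted p-values of the 8 genes are printed only between groups that all received agonist. Counts of the 8 past a threshold in comparisons that involve PBS are printed as part of the description.

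B16F10 is a mouse melanoma line, grown subcutaneously in the flank of female C57BL/6 mice bought at 5 to 6 weeks of age. CDN2, which the sample labels call CL656, is a cyclic dinucleotide that activates STING, and exoCDN2 is the same compound loaded into extracellular vesicles (EVs) from HEK293 cells that overexpress PTGFRN. After 1 intratumoral dose there were 2 tumors each with PBS, unloaded EVs, CDN2 (20 µg), CDN2 (100 µg) and exoCDN2 (0.1 µg). After 2 doses, 3 days apart, there were 2 tumors each with PBS, with exoCDN2 (0.1 µg) or with free CDN2 (20 µg), and tumors were taken 24 h after the last dose, a time that the sources used here do not state for CDN2 (100 µg). A pair of tumors labelled with 2 doses of CL656 and no amount entered no comparison. The RNA came from whole tumors, in which a change in the number of cells of a type and a change in RNA per cell cannot be told apart. The total expected counts per tumor lay between 21608895 and 65983630. Melanocyte genes (Pmel, Tyr, Tyrp1, Dct, Mlana and Sox10) were detected in every group and summed to between 10105 and 23490 CPM (counts scaled to the size of the library). The 2 tumors given 2 doses of CDN2 differed from each other more than those of any other group, by over 2-fold for 27.1% of genes. The 2 tumors of a group are separate samples by label, so p-values measure the spread between such tumors, and an exact permutation test of 2 against 2 could not have given a two-sided p under 0.333.

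TRIM proteins combine a RING domain, which in most members makes them E3 ubiquitin ligases, with B-box and coiled-coil regions. Many are made in larger amounts after type I interferon, and several set the strength of the pathways that sense viral nucleic acids. Many interferon target promoters carry the interferon-stimulated response element (ISRE), through which the signal acts on transcription. In mice, one block of chromosome 7 carries expanded copies of the TRIM5, TRIM30 and TRIM34 genes.

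The 8 genes lay on 4 chromosomes of GRCm38, all of them protein coding. Trim21 (ENSMUSG00000030966) spanned chr7:102557921-102565486 on the minus strand. Further along the same chromosome lay Trim34a (ENSMUSG00000056144) at chr7:104244457-104262234 on the plus strand, Trim12c (ENSMUSG00000057143) at chr7:104338754-104353362, Trim30a (ENSMUSG00000030921) at chr7:104409025-104465193 and Trim30d (ENSMUSG00000057596) at chr7:104470014-104507849, the last 3 on the minus strand. Trim14 (ENSMUSG00000039853) was at chr4:46493781-46536141, Trim25 (ENSMUSG00000000275) at chr11:88999376-89020293 and Trim26 (ENSMUSG00000024457) at chr17:36837134-36859398.

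RefSeq promoter windows of 300 bases (250 before to 50 after the transcription start, GRCm38.p6) were at hand for 7 of the 8 genes, all but Trim14. The core of the ISRE, searched on both strands as GAAANNGAAA with overlapping matches allowed, was found in 6 of these 7, all but Trim25. It was found in 3.99% of the 27025 genes with a window. The stretches that hold it are printed to show where the match sits in each gene and how alike the copies are. They run 5′ to 3′ along the gene, with the bases of a match in capitals, and a match on the opposite strand reads as the reverse complement.
Trim21 (chr7:102565453-102565499, minus strand): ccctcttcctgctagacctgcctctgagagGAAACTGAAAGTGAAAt
Trim34a (chr7:104244437-104244486, plus strand): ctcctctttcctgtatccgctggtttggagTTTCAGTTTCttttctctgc
Trim12c (chr7:104353339-104353408, minus strand): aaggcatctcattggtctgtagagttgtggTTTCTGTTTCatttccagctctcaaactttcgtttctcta
Trim30a (chr7:104465190-104465259, minus strand): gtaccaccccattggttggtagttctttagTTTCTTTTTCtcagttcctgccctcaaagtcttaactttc
Trim30d (chr7:104507851-104507920, minus strand): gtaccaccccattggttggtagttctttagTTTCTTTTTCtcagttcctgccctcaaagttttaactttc
Trim26 (chr17:36836956-36837031, plus strand): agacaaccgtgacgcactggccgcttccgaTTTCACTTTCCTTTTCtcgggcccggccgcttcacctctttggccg

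Trim21 and Trim26 each held 2 overlapping matches and the other 4 genes held 1. Counted from the first transcribed base as 1, the matches of Trim21 began at bases 14 and 20 and that of Trim34a at base 11, inside the transcript. Those of Trim12c, Trim30a and Trim30d began 29, 36 and 41 bases before the start, and those of Trim26 began 160 and 154 bases before it. Trim30a and Trim30d had the same letters in the match, and their whole windows were identical at 277 of 305 aligned positions. A second RefSeq start of Trim30a held the same 10 letters, 3 bases past its start. The letters of a gamma activated site (TTCNNNGAA) and of an NF-kB site (GGGANTTTCC) were in none of the 7 windows, against 9.55% and 0.466% of all genes with a window. A match describes letters in the window and does not show that a factor bound there.

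**Figure D1:**
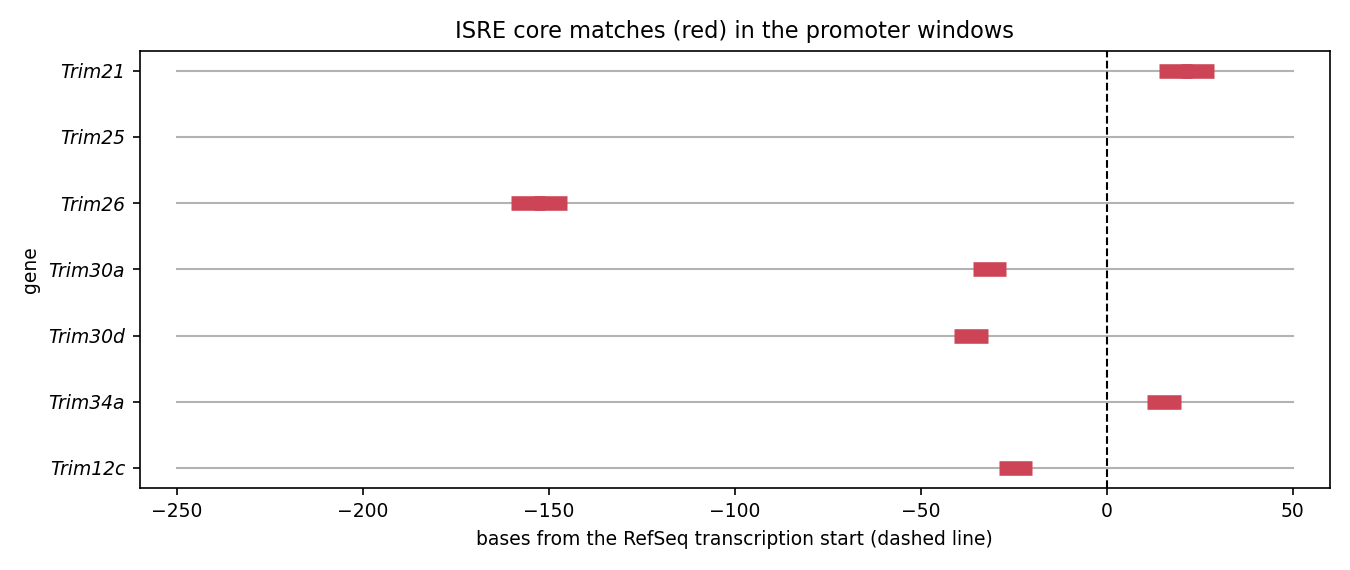
ISRE core matches (red bars) along the 300-base RefSeq promoter windows (grey lines) of 7 TRIM genes, in bases from the transcription start (dashed line). The matches of Trim12c, Trim30a and Trim30d lay within 41 bases before the start, those of Trim21 and Trim34a just after it, those of Trim26 furthest upstream, and Trim25 had none.

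Among all genes called higher after 1 dose (adjusted p under 0.05 and over 2-fold), the ISRE core was in the window of 23.4% of 278 genes for CDN2 (20 µg) and 25.6% of 270 genes for exoCDN2. After 2 doses the share was 8.84% of 2216 genes for CDN2 and 13.9% of 1074 for exoCDN2. Among genes not called in these 4 comparisons it was between 2.92% and 3.55%. Of the 37 other tested TRIM genes with a window, Trim12a, Trim5 and Trim2 held the core.

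Read counts of the 8 genes were not equally certain. Stretches of 100 bases shared with another gene's transcripts made up 21.0% of Trim34a (shared with Trim34b), 8.05% of Trim12c (mostly Trim5), 4.41% of Trim30a and 4.57% of Trim30d (with each other). For Trim21, Trim14 and Trim25 there were none, and for Trim26 0.0399%. The expected counts of Trim30a and Trim30d were not whole numbers in 17 of 18 tumors (tolerance 0.01) those of Trim12c in 15, those of Trim34a in 11 and those of Trim14, which shared no such stretch, in 10, whereas those of Trim21, Trim25 and Trim26 were whole in all 18. The values of the 4 chromosome 7 copies are uncertain to the extent that shared reads were divided between genes.

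Levels are given as RPKM, reads scaled to exon length and to the TMM-adjusted library size, so that genes of unlike length share 1 scale. Trim21, the cytosolic receptor for antibody, stood at 5.43 and 5.94 RPKM in the PBS tumors after 1 dose and at 4.11 and 3.65 with unloaded EVs. It reached 31.6 and 37.7 RPKM with CDN2 (20 µg), 27.3 and 26.2 with CDN2 (100 µg) and 43.2 and 47.9 with exoCDN2. After 2 doses it was at 2.13 and 1.78 RPKM with PBS, 11.1 and 14.2 with CDN2 and 16.2 and 12.5 with exoCDN2. Agonist tumors thus lay above the PBS tumors of their own dose number without overlap, and the level with either agonist was lower after the second dose than after the first.

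Trim25, the ligase that activates the RNA sensor RIG-I, had the highest level per length of the 8 genes in each of the 5 groups given 1 dose. It stood at 11.9 and 10.6 RPKM with PBS, 10.6 and 8.42 with EVs, 42.9 and 39.7 with CDN2 (20 µg), 38.8 and 40.6 with CDN2 (100 µg) and 50.7 and 52.0 with exoCDN2. In the tumors given 2 doses it was at 4.99 and 5.70 RPKM with PBS, 28.1 and 25.2 with CDN2 and 27.1 and 23.2 with exoCDN2. The 2 agonist groups overlapped after 2 doses and both lay above PBS. Dividing by the longest transcript in place of all exons put Trim21 above Trim25 after 1 dose of CDN2 (20 µg) or exoCDN2, and Trim26 above it with CDN2 (100 µg), so the order of these 3 depends on the length used.

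Trim26, a ligase that acts on IRF3, the factor that turns on interferon-β, was the gene with the smallest difference from PBS after 2 doses. It stood at 6.37 and 6.25 RPKM with PBS after 1 dose, 5.52 and 4.95 with EVs, 21.9 and 24.5 with CDN2 (20 µg), 29.8 and 25.7 with CDN2 (100 µg) and 21.7 and 20.5 with exoCDN2. After 2 doses it was at 4.43 and 4.99 RPKM with PBS, 11.0 and 11.1 with CDN2 and 10.2 and 8.17 with exoCDN2. It was the only one of the 8 whose mean was higher with 100 µg than with 20 µg of CDN2.

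Trim14, an adaptor without a RING domain that takes part in RIG-I signalling and protects cGAS from degradation, was the least abundant of the 8 in all groups but PBS after 2 doses, where Trim30d was lower. It stood at 0.616 and 0.590 RPKM with PBS after 1 dose, 0.407 and 0.535 with EVs, 1.53 and 1.41 with CDN2 (20 µg), 1.04 and 1.02 with CDN2 (100 µg) and 1.77 and 1.87 with exoCDN2. In the tumors given 2 doses it was at 0.409 and 0.413 RPKM with PBS, 3.05 and 2.36 with CDN2 and 2.85 and 1.69 with exoCDN2. Its counts lay between 81 and 628 per tumor.

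Trim30a, which dampens NF-kB signalling from Toll-like receptors and promotes the loss of STING, had the highest level of the 8 after 2 doses of either agonist. It stood at 7.66 and 7.55 RPKM with PBS after 1 dose, 4.90 and 6.78 with EVs, 29.2 and 32.0 with CDN2 (20 µg), 14.3 and 17.7 with CDN2 (100 µg) and 34.2 and 36.8 with exoCDN2. After 2 doses it was at 2.57 and 1.36 RPKM with PBS, 44.6 and 54.1 with CDN2 and 65.1 and 51.6 with exoCDN2. Unlike Trim21, it was at its highest in the tumors given 2 doses.

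Trim30d, the neighbouring paralog of Trim30a, stood at 1.50 and 1.38 RPKM with PBS after 1 dose, 1.08 and 1.27 with EVs, 7.21 and 8.40 with CDN2 (20 µg), 3.92 and 5.32 with CDN2 (100 µg) and 11.4 and 12.0 with exoCDN2. In the tumors given 2 doses it was at 0.505 and 0.153 RPKM with PBS, 11.2 and 9.49 with CDN2 and 13.1 and 9.34 with exoCDN2. The lower of the PBS values rested on 26 counts, so folds against that group are imprecise.

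Trim34a, a mouse counterpart of TRIM34, stood at 3.48 and 2.77 RPKM with PBS after 1 dose, 1.99 and 2.65 with EVs, 11.7 and 11.8 with CDN2 (20 µg), 6.90 and 7.67 with CDN2 (100 µg) and 13.8 and 14.2 with exoCDN2. After 2 doses it was at 0.947 and 0.580 RPKM with PBS, 9.04 and 14.4 with CDN2 and 17.8 and 11.6 with exoCDN2. Its levels after 1 and 2 doses of the same agonist overlapped.

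Trim12c, which belongs to the mouse TRIM5 group, stood at 4.79 and 4.82 RPKM with PBS after 1 dose, 2.84 and 3.00 with EVs, 13.0 and 14.5 with CDN2 (20 µg), 10.5 and 12.7 with CDN2 (100 µg) and 20.3 and 19.5 with exoCDN2. In the tumors given 2 doses it was at 0.998 and 0.396 RPKM with PBS, 3.19 and 7.29 with CDN2 and 13.3 and 12.6 with exoCDN2. It was the only one of the 8 in which the exoCDN2 tumors lay clear above the CDN2 tumors after 2 doses.

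**Figure D2:**
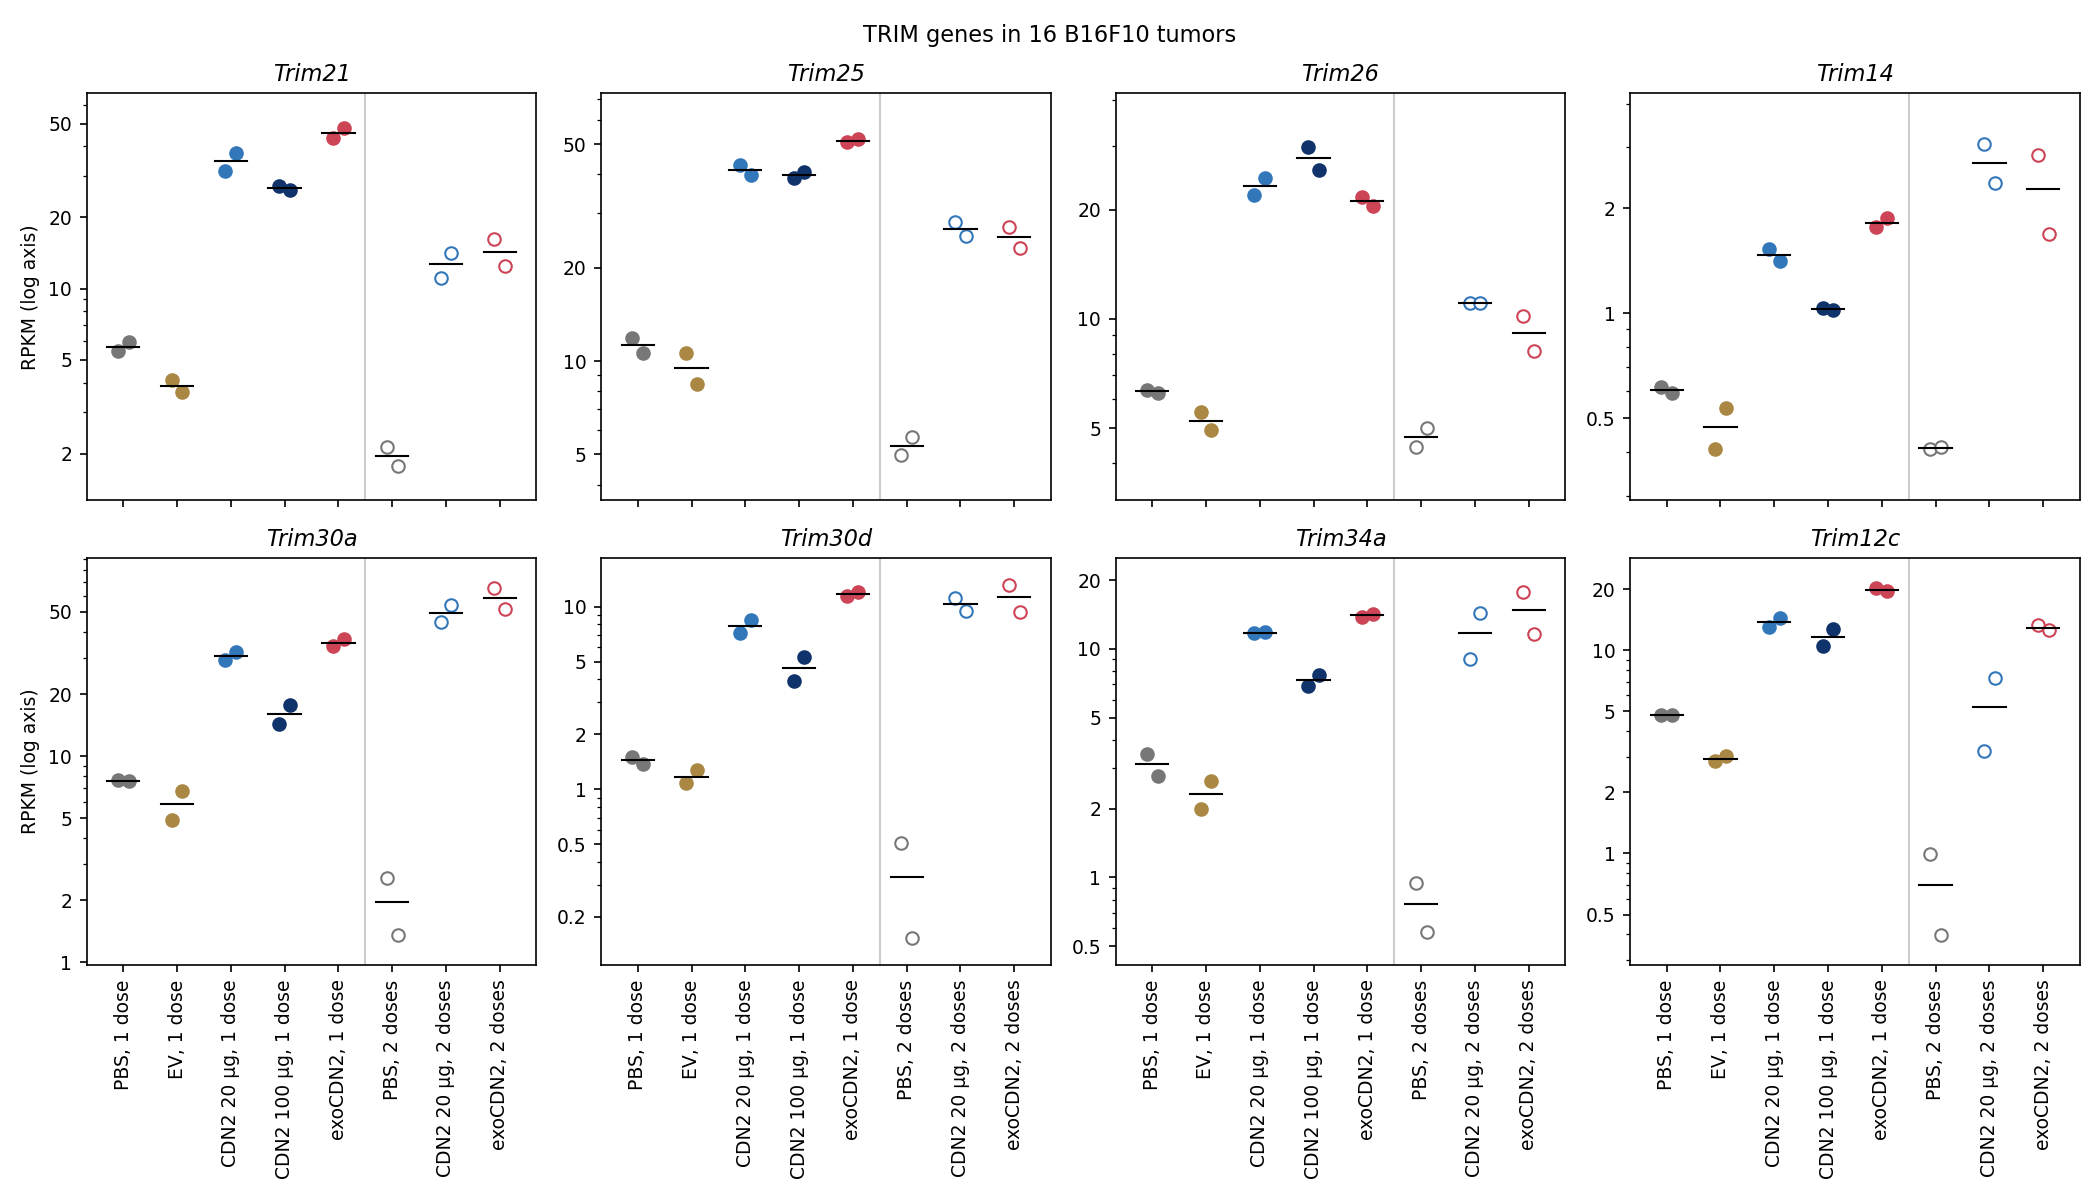
RPKM (log axis) of 8 TRIM genes in each of 16 tumors, by group, with filled points after 1 dose, open points after 2 doses and a black line at the mean of 2 tumors. Every agonist tumor lay above the PBS tumors of its own dose number, and the PBS tumors after 2 doses lay below those after 1 dose. The 8 genes were chosen with their response known and the share of all genes separated in this way was not counted, so nothing is read from it.

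Against the PBS tumors of the same dose number, the 8 genes were higher in edgeR's log2 fold change by 1.29 (Trim14) to 2.61 (Trim21) after 1 dose of CDN2 (20 µg) and by 1.60 (Trim14) to 3.02 (Trim30d) after exoCDN2. The medians over the 8 were 1.90 and 2.18, beside medians over all genes of -0.0035 and -0.024. With CDN2 (100 µg) the range was 0.77 (Trim14) to 2.23 (Trim21). After 2 doses it was 1.23 (Trim26) to 4.96 (Trim30d) for CDN2 and 0.96 (Trim26) to 5.08 (Trim30d) for exoCDN2. Called higher were 8 of 8 genes with CDN2 (20 µg), 6 of 8 with CDN2 (100 µg) and 8 of 8 with exoCDN2 after 1 dose, where 2.26%, 1.82% and 2.20% of all genes tested were called higher. After 2 doses 8 of 8 and 7 of 8 were called, beside 20.0% and 8.87% of all genes. These counts follow from the choice of genes and nothing is read from them.

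All 8 genes were lower with unloaded EVs than with PBS, with log2 fold changes of -0.24 (Trim25) to -0.72 (Trim12c). None of the 8 passed the threshold by edgeR or by DESeq2, Trim21 alone had an unadjusted p under 0.05, and the share of all 16927 genes called was 0% in each direction by edgeR. At an unadjusted p under 0.05 there were 232 genes higher and 308 lower in the whole table, and DESeq2 called 6 and 29. The pan-leukocyte genes (Ptprc, Coro1a and Laptm5) summed to 40.7 and 88.3 CPM in the EV tumors and 68.2 and 84.7 in the PBS tumors. T cell genes summed to 1.94 and 5.30 against 6.58 and 8.65 CPM and keratinocyte genes to 0.177 and 49.7 against 59.5 and 113 CPM, and the part of these markers in the difference was not tested.

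The PBS tumors themselves differed by dose number. All 8 genes were lower in the PBS tumors after 2 doses than after 1, with log2 fold changes of -0.42 (Trim26), -0.55 (Trim14), -1.07 (Trim25), -1.54 (Trim21), -1.95 (Trim30a), -2.03 (Trim34a), -2.12 (Trim30d) and -2.78 (Trim12c). All but Trim14 and Trim26 (6 of 8) were called lower, where 1.05% of all genes were called lower. The interferon response reference list (16 genes such as Ifit1, Mx1 and Cxcl10) had 11 genes called lower in the same comparison. Pan-leukocyte genes summed to 33.2 and 37.2 CPM in these tumors, against 68.2 and 84.7 after 1 dose, and melanocyte genes to a mean of 23490 against 20059. T cell genes (1 of 5 called lower) summed to 0.840 and 1.65 CPM against 6.58 and 8.65. Keratinocyte genes (Krt5, Krt14 and Krt10, 0 of 3 called) summed to 0.0442 and 0.412 CPM against 59.5 and 113 in the PBS tumors after 1 dose. The part of these marker differences in the 8 genes was not tested. Folds against PBS after 1 and 2 doses thus start from unequal levels.

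**Figure D3:**
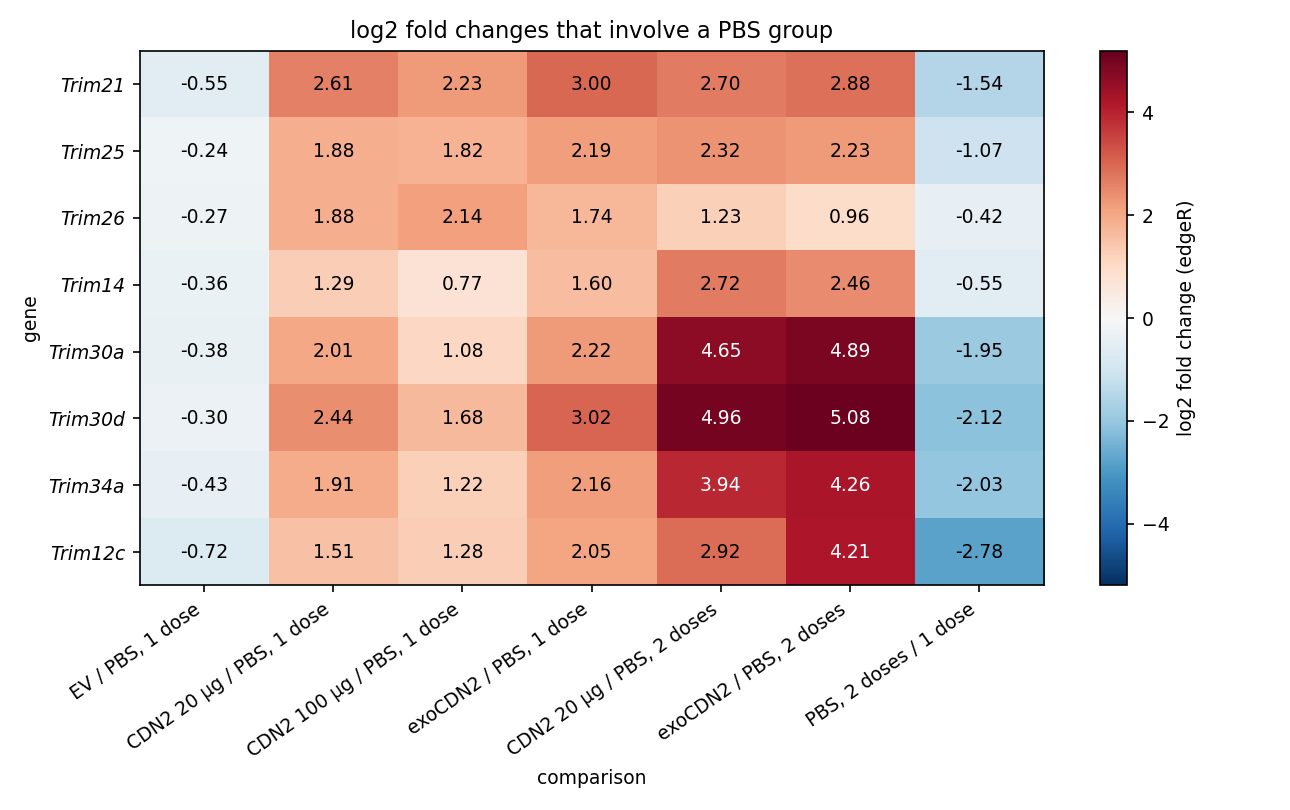
log2 fold changes (edgeR) of 8 TRIM genes (rows) in the 7 comparisons that involve a PBS group (columns), red for higher and blue for lower. The chromosome 7 genes Trim30a, Trim30d, Trim34a and Trim12c were between 2.92 and 5.08 above PBS after 2 doses, and Trim26 was at 1.23 and 0.96.

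The first comparison without a PBS tumor asked whether 0.1 µg of the agonist in EVs and 20 µg of free agonist gave different levels. After 1 dose, 7 of the 8 genes were higher with exoCDN2, by 0.22 (Trim30a) to 0.58 (Trim30d) on the log2 scale, and Trim26 was at -0.14. None was called by edgeR, where 0.201% of all genes were called higher and 0.408% lower, and none by DESeq2, while Trim21 and Trim25 had an unadjusted p under 0.05. The smallest adjusted p of the 8 was 0.229, for Trim21 (log2 difference 0.40, SE 0.17, 95% interval 0.024 to 0.77). The interval of Trim30a ran from -0.33 to 0.77 and that of Trim30d from -0.15 to 1.32 on the log2 scale. The amounts of compound in the 2 groups differed as stated, so the levels are set side by side and not per amount. Endothelial genes (Pecam1, Cdh5, Kdr and Vwf), 3 of 4 of them called higher with exoCDN2, summed to 102 and 115 CPM against 43.1 and 46.5 with CDN2. With PBS after 1 dose they summed to 104 and 107 CPM. Against PBS, 3 of 4 were called lower with CDN2 (0.886% of all genes) and 0 with exoCDN2. T cell genes summed to 2.18 and 2.93 CPM with exoCDN2 against 4.25 and 9.23 with CDN2, and pan-leukocyte genes to 65.0 and 74.2 against 58.8 and 109. The part of these marker differences in the 8 genes was not tested.

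After 2 doses the difference between exoCDN2 and CDN2 was called for 1 of the 8 genes. Trim12c, at 13.3 and 12.6 RPKM against 3.19 and 7.29, was higher with exoCDN2 by 1.29 on the log2 scale (SE 0.37, 95% interval 0.50 to 2.09, edgeR adjusted p = 0.0186). The background was 7.34% of all genes called higher and 12.0% called lower, so 1 of 8 is near the share of all genes. The call was lost without the first CDN2 tumor (0.83, adjusted p = 0.102), without either exoCDN2 tumor (1.27 and 1.35, adjusted p = 0.0641 and 0.0680) and when only these 2 groups were fitted (1.29, adjusted p = 0.154). Without the second CDN2 tumor the difference was 2.06. For the other 7 genes the differences lay between -0.27 (Trim26) and 0.32 (Trim34a), with adjusted p from 0.139 to 0.797, and the tumors of the 2 groups overlapped in all of them but Trim26. Of the 16 interferon reference genes, 7 were called lower with exoCDN2, 1 was called higher and 8 were not called. Of 49 other TRIM genes tested, 6 were called higher with exoCDN2 and 8 lower. Trim5, with which Trim12c shares stretches, was among the higher (log2 1.58), and Trim12a was not called (log2 0.08).

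The marker genes of these 2 groups differed as well. Neutrophil genes summed to 175 and 796 CPM after 2 doses of CDN2 and to 8.04 and 39.7 after exoCDN2, and skeletal muscle genes (Acta1, Ckm and Myh4) to a mean of 2170 and 128. T cell genes summed to 6.77 and 6.98 CPM with CDN2 and 21.6 and 27.9 with exoCDN2. Pan-leukocyte genes summed to a mean of 201 and 243 CPM and melanocyte genes to a mean of 10105 and 15227. The part of these differences in the level of Trim12c was not tested.

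Raising free CDN2 from 20 to 100 µg in 1 dose gave no higher level in 7 of the 8 genes. Trim30a was at 14.3 and 17.7 RPKM with 100 µg and 29.2 and 32.0 with 20 µg, a log2 difference of -0.93 (SE 0.25, 95% interval -1.49 to -0.38, edgeR adjusted p = 0.106). Trim30d (-0.76), Trim34a (-0.69), Trim14 (-0.52), Trim21 (-0.37), Trim12c (-0.24) and Trim25 (-0.06) had the same sign, and Trim26 was at 0.26 (95% interval -0.043 to 0.56). None was called by edgeR or DESeq2, where edgeR called 0.230% of all genes higher and 0.224% lower, and 4 of the 8 had an unadjusted p under 0.05. Pan-leukocyte genes summed to 49.7 and 54.9 CPM with 100 µg and 58.8 and 109 with 20 µg, and T cell genes to 1.23 and 1.37 against 4.25 and 9.23. Endothelial genes went the other way, at 95.3 and 120 CPM with 100 µg and 43.1 and 46.5 with 20 µg. So did fibroblast and pericyte genes (Col1a1, Pdgfra, Pdgfrb and Dcn), at 176 and 199 against 90.7 and 135 CPM. The part of these marker differences in the values of the 8 genes was not tested.

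The second dose was then compared with the first within each agonist, and the 8 genes split. With exoCDN2, Trim21 fell by 1.67 on the log2 scale (SE 0.18, edgeR adjusted p = 0.00156), Trim26 fell by 1.20 (SE 0.14, adjusted p = 0.00156) and Trim25 fell by 1.03 (SE 0.14, adjusted p = 0.00220). In all 3 both tumors after 2 doses lay below both tumors after 1 dose. The other 5 genes were not called. Trim30a was at 0.72 (95% interval 0.16 to 1.27, adjusted p = 0.0868), Trim14 at 0.31, Trim34a at 0.07, Trim30d at -0.06 and Trim12c at -0.62. Among all genes 5.10% were called higher and 2.34% lower. Without the second exoCDN2 tumor after 2 doses, Trim25 was at -0.92, under the ratio limit.

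With CDN2 (20 µg), Trim21 fell by 1.45 (SE 0.17, edgeR adjusted p = 0.000475), Trim26 fell by 1.07 (SE 0.14, adjusted p = 0.000668) and Trim12c fell by 1.38 (SE 0.37, adjusted p = 0.0134). Among all genes 14.4% were called higher and 6.36% lower. Trim25 was at -0.63 (adjusted p = 0.00623) and Trim14 at 0.88 (adjusted p = 0.0179), both past the p threshold but under 2-fold. Trim30a was at 0.69 (adjusted p = 0.0508), Trim30d at 0.41 and Trim34a at -0.0046. The call of Trim12c was lost without the first CDN2 tumor after 2 doses (-0.93, adjusted p = 0.0613), where leaving out the second gave -2.16, and without the second after 1 dose (-1.32, adjusted p = 0.0530). With only the 2 groups fitted it was at -1.37 (adjusted p = 0.107), and Trim26 at -1.05 (adjusted p = 0.0656) was not called either. The comparisons of both agonists thus shared Trim21 and Trim26 among the genes called lower. No tumor was common to these comparisons, but all groups shared 1 estimate of the spread. In the PBS tumors, 2 doses against 1, Trim21 was at -1.54 and Trim26 at -0.42. Both agonist comparisons also hold any such difference between dose numbers.

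**Figure D4:**
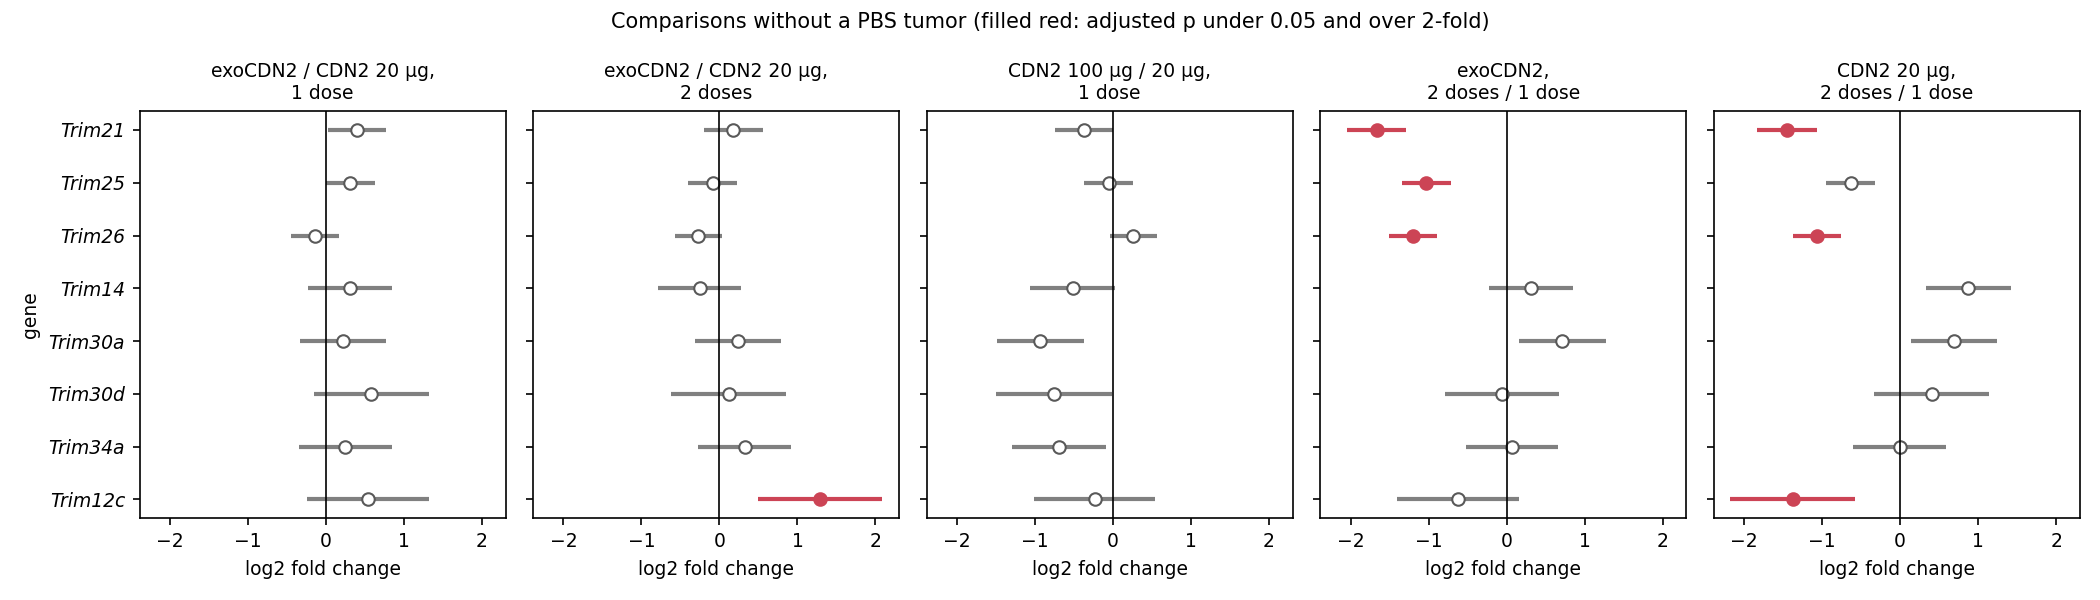
log2 fold changes with 95% intervals (edgeR) of 8 TRIM genes in the 5 comparisons without a PBS tumor, with called genes in filled red. Trim21 and Trim26 were called lower after the second dose of either agonist, Trim25 after exoCDN2 and Trim12c after CDN2. Trim12c alone was called between exoCDN2 and CDN2 after 2 doses. In the PBS tumors, not shown, 2 doses against 1 gave -1.54 for Trim21 and -0.42 for Trim26.

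The PBS tumors also differed between dose numbers, so the same change was set against that of PBS. Relative to PBS, Trim30a was at 2.67 with exoCDN2 and 2.64 with CDN2, Trim30d at 2.06 and 2.53, Trim34a at 2.10 and 2.02, Trim12c at 2.16 and 1.40 and Trim14 at 0.87 and 1.43 on the log2 scale. Trim21 was at -0.13 and 0.09, Trim25 at 0.04 and 0.44 and Trim26 at -0.78 and -0.65. By this reading 4 of the 8 genes were called higher with each agonist and none lower, beside 5.12% higher and 1.70% lower of all genes for exoCDN2 and 11.7% and 5.16% for CDN2. Some genes called lower between doses changed sign here, with exoCDN2 Trim25 (-1.03 between doses) and with CDN2 Trim21 (-1.45) and Trim12c (-1.38). These values use the PBS tumors and are a description. The summed pan-leukocyte genes went from a mean of 69.6 after 1 dose to 243 CPM after 2 doses of exoCDN2 and from 83.8 to 201 CPM with CDN2, and melanocyte genes from 20763 to 15227 and from 22342 to 10105. Their part in the changes of the 8 genes was not tested.

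Over all 16 tumors the closest patterns within the 8 genes were those of Trim30a and Trim34a, which differed by a root mean square of 0.357 on the log2 scale after each gene's own mean was removed. Trim30a and Trim30d followed at 0.373 and Trim25 and Trim26 at 0.408, and the most unlike pair was Trim30d and Trim26 at 1.36. Among all tested genes the one closest to Trim21 was Dtx3l (0.240), to Trim30a Xaf1 (0.290), to Trim30d Trim12a (0.322), to Trim34a Herc6 (0.339), to Trim12c Gbp7 (0.482) and to Trim14 Lgals9 (0.232). Trim25 and Trim26 shared their closest gene, Rbm43 (0.311 and 0.267), and their next, Irf2 (0.342 and 0.295). The standard deviation of the 8 genes over the 16 tumors was 0.951 (Trim26) to 1.85 (Trim30d). These likenesses rest on the same 16 libraries for all genes and say nothing of shared control.

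The rest of the family was taken as 64 protein-coding genes, those with a numbered Trim symbol plus Pml, Mefv, Mid1 and Mid2. The Trim genes entered by symbol and not by response, so whether they moved with agonist could be tested, although the 8 had been taken out of the family for theirs. Pml, Mefv, Mid1 and Mid2 were added by name with earlier results of these data in view, and Pml and Mefv count among the genes called higher below. Of the 64 genes, 49 passed the filter on low counts. After 1 dose of CDN2 (20 µg) 3 of the 49 were called higher and 2 lower, with 2.26% higher and 0.886% lower among all genes. Pml, the organizer of nuclear bodies, rose from 8.94 and 8.26 RPKM with PBS to 29.4 and 26.4 (log2 1.70, SE 0.18, edgeR adjusted p = 0.00019). Trim12a, the neighbour of Trim12c, rose from 1.45 and 1.39 RPKM to 5.56 and 7.13 (log2 2.16, SE 0.25, adjusted p = 0.000468), and Trim30c rose from 0.154 and 0.210 to 3.26 and 5.67 RPKM (log2 4.60, adjusted p = 0.00621). Trim16 (log2 -2.30, adjusted p = 0.00306) and Trim71 (log2 -2.07, adjusted p = 0.0115) fell, from 0.367 and 0.293 to 0.0711 and 0.0612 RPKM and from 0.374 and 0.334 to 0.110 and 0.0569 RPKM. The count of 2 lower became 1 without the second CDN2 tumor or either PBS tumor.

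After 1 dose of exoCDN2 6 of the 49 were called higher and 0 lower by edgeR, with 2.20% and 0.425% among all genes. The latter count was 5 at an unadjusted p under 0.05 (1350 among all genes) and 1 by DESeq2 (170 among all genes). Pml reached 29.9 and 34.3 RPKM (log2 1.90, adjusted p = 8.84e-05), Trim12a 6.35 and 6.59 (log2 2.19, adjusted p = 0.000456) and Trim56, a ligase of the antiviral response, 15.9 and 16.1 against 6.12 and 5.77 with PBS (log2 1.43, adjusted p = 0.00107). Trim30c, Trim30b and Mefv, which encodes pyrin, were the other 3. The count of 6 fell to 3 without the first PBS tumor and to no more than 4 without any other. With CDN2 (20 µg) Trim56 was at 0.72 (adjusted p = 0.0538), and exoCDN2 exceeded CDN2 by 0.72 (adjusted p = 0.0724), which did not pass the threshold.

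After 2 doses of exoCDN2 7 of the 49 were called higher and 1 lower, with 8.87% and 2.48% among all genes. Trim12a rose from 0.260 and 0.153 RPKM with PBS to 8.83 and 5.58 (log2 5.12, SE 0.30, adjusted p = 1.19e-06) and Trim5 from 0.101 and 0.0479 to 1.96 and 1.35 (log2 4.45, SE 0.48, adjusted p = 8.51e-05). Pml stood at 23.6 and 18.5 RPKM against 6.52 and 8.59 (log2 1.48, adjusted p = 0.00018). Trim9 fell from 0.103 and 0.0934 to 0.0402 and 0.0300 RPKM (log2 -1.49, adjusted p = 0.0164), and this count of 1 became 0 without the first exoCDN2 tumor or either PBS tumor.

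After 2 doses of CDN2 12 of the 49 were called higher and 7 lower, with 20.0% and 10.6% among all genes, so the family's shares were near those of all genes. Trim12a (6.45 and 7.15 RPKM, log2 5.03, adjusted p = 8.45e-07), Trim30c (28.0 and 6.38 RPKM, log2 7.69, adjusted p = 8.7e-05) and Mefv (3.78 and 1.71 RPKM, log2 4.42, adjusted p = 0.000156) led those that rose. Trim30c had only 6 and 7 counts in the PBS tumors, so its fold is imprecise. The same holds for Trim9, among those that fell, with 4 counts in each CDN2 tumor. Trim37 (log2 -1.36, adjusted p = 0.00011), Trim9 (log2 -3.16, adjusted p = 0.000276) and Trim59 (log2 -1.53, adjusted p = 0.000331) led those that fell, and the count of 7 became 13 without the second CDN2 tumor.

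Among the 12 were 4 TRIM genes of striated muscle, singled out after their values were seen. Trim63 and Trim55 (muscle RING-finger proteins), Trim54 of the same group and Trim72, a membrane repair protein, rose by 1.60, 3.44, 5.73 and 4.07 on the log2 scale (edgeR adjusted p = 0.00256, 0.0233, 0.000289 and 0.00506). Trim54 was at 26.0 and 13.0 RPKM against 0.287 and 0.446 with PBS. Trim63 was at 73.0 and 29.4 RPKM against 16.5 and 17.3 with PBS. Unlike Trim54, it was also well expressed elsewhere, at 21.6 and 22.4 RPKM with PBS after 1 dose. In the second EV tumor, where Trim54 had 1 count and Trim72 had 0, Trim63 was at 20.6 RPKM. None of these 4 was called in the other 3 comparisons with PBS. The skeletal muscle markers Acta1, Ckm and Myh4 summed to 1382 and 2959 CPM in the tumors given 2 doses of CDN2 and to between 2.42 and 398 in all others, and their part in these 4 values was not tested.

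The TRIM genes of chromosome 7 were also taken in chromosomal order from Trim21 to Trim3. Of these 13 genes, 12 passed the filter and 10 were called higher in at least 1 of the 4 comparisons with PBS, as were 21.8% of all genes tested. Of the 10, 5 belong to the 8 genes chosen for their response, and nothing is read from those. The others were Trim6, Trim5, Trim12a, Trim30b and Trim30c. Trim68 (log2 -0.65 to 0.19) and Trim3 (log2 -0.27 to 0.25) were called in none. They lie apart from the block between Trim6 and Trim30d, as does Trim21, a chosen gene called higher in all 4. Trim6 had only 3 counts in each PBS tumor after 2 doses, Trim30c had 6 and 7, Trim5 had 18 and 8, and Trim30b had 22 and 2.

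**Figure D5:**
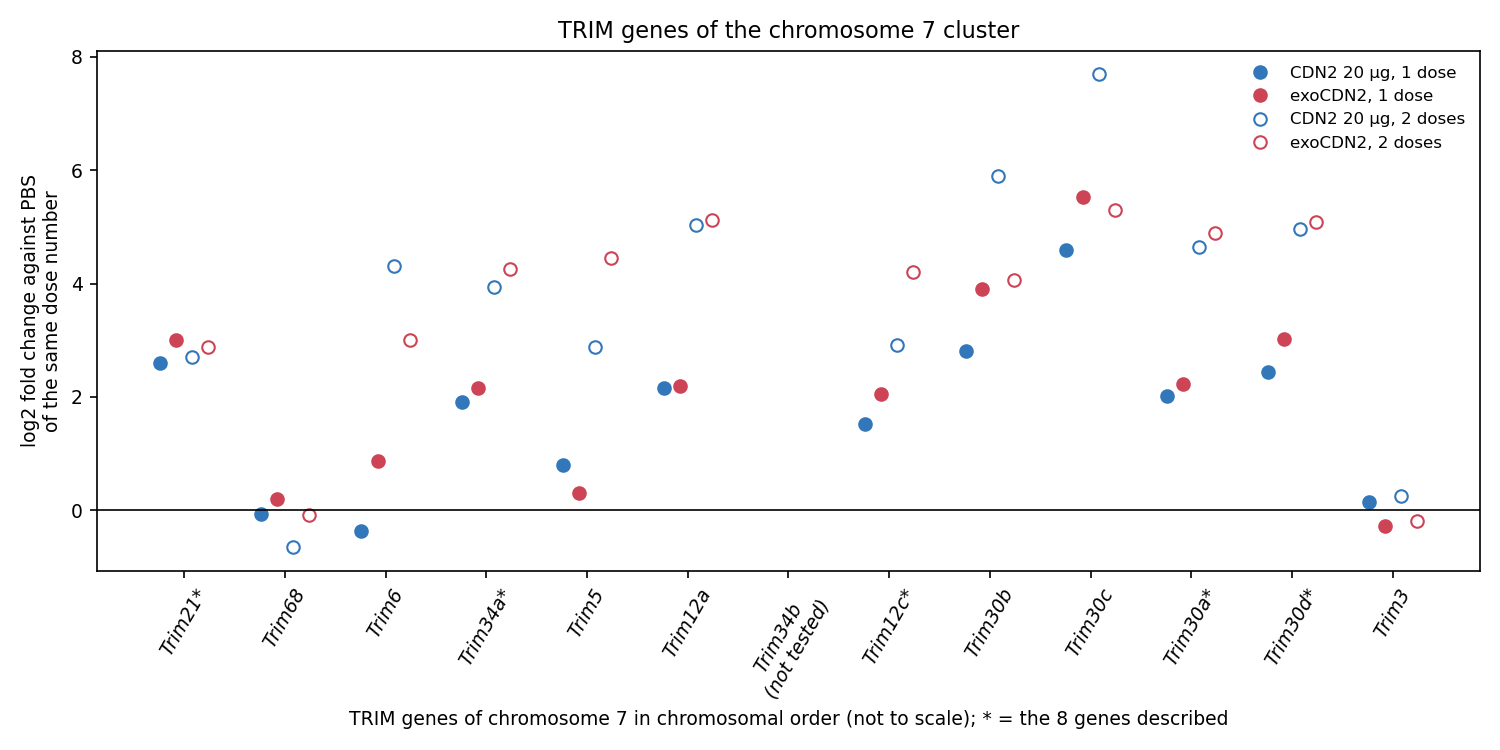
log2 fold changes against PBS of the same dose number for 13 TRIM genes of chromosome 7 in chromosomal order (not to scale), filled after 1 dose and open after 2 doses, blue for CDN2 (20 µg) and red for exoCDN2. Trim68 and Trim3 lay near 0, and the fold changes of the tested genes from Trim34a to Trim30d were larger after 2 doses than after 1, except for Trim30c with exoCDN2 (5.52 and 5.29). The PBS tumors differed by dose number (Trim12a at -2.78 and Trim5 at -2.17, 2 doses against 1), so these folds start from unequal levels. Trim34b was not tested.

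The proteins that TRIM ligases act on or work with were read from a list of 22 genes, all tested and chosen with earlier results of these data known. In each of the 4 comparisons 7 of them were called higher and 0 lower. Among all genes 2.26%, 2.20%, 20.0% and 8.87% were called higher for 1 dose of CDN2, 1 dose of exoCDN2, 2 doses of CDN2 and 2 doses of exoCDN2. DESeq2 also called 0 lower. At an unadjusted p under 0.05 there were 0, 0, 4 and 2 lower in the same order, beside 1184, 1350, 4613 and 2386 among all genes. Ddx58, which encodes RIG-I, the substrate of Trim25, rose by 2.22 and 2.95 after 1 dose of CDN2 and exoCDN2 and by 3.22 and 3.47 after 2 doses, and Isg15 rose by 3.47, 3.30, 7.62 and 5.61. Ifih1 (MDA5) rose by 3.43 to 3.78 and Irf7 by 2.29 to 6.51 over the 4. Cgas, which Trim14 protects, was called after 1 dose of CDN2 (1.55) and exoCDN2 (1.99), Zc3hav1 after 1 dose of either (1.32 and 1.35), and Ube2l6, the ISG15-conjugating enzyme, in all but 1 dose of exoCDN2. Nlrp3 was called in all but 1 dose of CDN2 and Irf8 after 2 doses of either. Tmem173, which encodes STING, the target of the agonist and of Trim30a, was at 0.53, 0.38, 0.61 and 0.70 and was called in none. Of the 16 interferon reference genes, 13, 13, 16 and 15 were called higher, with median log2 fold changes of 4.56, 4.38, 5.77 and 4.76.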

How the data were processed

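Bulk tumor RNA was sequenced by the authors, mapped to GRCm38 (mm10) with OSA in OmicSoft ArraySuite and quantified with RSEM on Ensembl genes. The deposited values are raw expected counts per gene, not normalized, which were rounded to whole numbers here. The version of RSEM is not given in the sources used here. The total per tumor was 21608895 to 65983630, and no column outside the 18 labelled tumors was used (0 columns without a sample).

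The 16 tumors of 8 groups (2 each) were fitted together with edgeR 4.0.16 in R 4.3.3, with filterByExpr (minimum count 10, minimum total 15), TMM factors and the quasi-likelihood F-test, without a replicate block. The Benjamini-Hochberg adjustment ran over all 16927 genes. A call needed a ratio above 2 and an adjusted p below 0.05. DESeq2 1.42.0 was run as an alternative, beside RLE factors, no filter on low counts, no ratio limit, another prior count, all 18 tumors, only the groups compared, pooled PBS, the replicate block and each tumor left out. RPKM used TMM-scaled libraries and the summed exon length of each gene in GENCODE M21. The fits were tried on simulated counts with the same spread for all genes and groups. Such counts do not cover the wider spread of the tumors given 2 doses of CDN2. Symbols were matched to 50376 of 50600 gene identifiers. Replicate numbers were not used to pair the tumors. Same-numbered deviations correlated by a mean of 0.0022 over 28 pairs of groups, with a range of -0.18 to 0.32. The highest was that of exoCDN2 and CDN2 after 2 doses.

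The 8 genes, the partner, reference and marker lists and the tests were chosen with earlier results of these data known. Named genes outside the 8 were up to 3 called TRIM genes with the smallest p in each direction and each of 4 comparisons with PBS, partner genes called in any of these 4, and the 3 genes closest in pattern to each of the 8 (of these the closest is printed). Promoter windows came from RefSeq (GRCm38.p6).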

Additional observations from a re-analysis of the deposited data

Results flagged for a closer look

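The effect of agonist against PBS differed between 2 doses and 1 dose by the interaction term of edgeR for several of the chosen genes, whose values describe the selection. With exoCDN2 the difference on the log2 scale was 2.67 for Trim30a, 2.06 for Trim30d, 2.10 for Trim34a and 2.16 for Trim12c. With CDN2 (20 µg) it was 2.64 for Trim30a, 2.53 for Trim30d, 2.02 for Trim34a and 1.43 for Trim14. In the PBS tumors alone, 2 doses against 1, the same genes were at -1.95 (Trim30a), -2.12 (Trim30d), -2.03 (Trim34a), -2.78 (Trim12c) and -0.55 (Trim14), which enters each of these values.

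The named TRIM genes outside the 8 were picked by their p against PBS. The same term is therefore a description for them, and its p-values are left out. Past the threshold with exoCDN2 were Trim5 (4.14) and Trim12a (2.93), beside 5.12% of all genes called higher. Past it with CDN2 were Trim5 (2.09), Trim12a (2.88), Mefv (2.85), Trim16 (3.86) and Trim71 (1.71), beside 11.7% of all genes. Negative and past it with CDN2 were Trim9 (-2.53), Trim37 (-1.24) and Trim59 (-1.17), beside 5.16% of all genes called lower. In the PBS tumors, 2 doses against 1, Trim5 was at -2.17 and Trim12a at -2.78, which enters these values. Between doses of the same agonist Trim12a was at 0.15 with exoCDN2 and 0.10 with CDN2, and Trim5 at 1.97 and -0.08. Trim16 was lower than PBS after 1 dose of CDN2 (-2.30) and higher after 2 doses (1.56).

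The 2 tumors labelled with 2 doses of CL656 and no amount were outside every comparison. Both lay above both PBS tumors after 2 doses in 7 of the 8 genes. The lower of their values was 5.69 RPKM for Trim21, 8.35 for Trim30a, 1.31 for Trim30d, 2.53 for Trim34a, 2.59 for Trim12c, 0.638 for Trim14 and 6.83 for Trim25. Trim26 was at 4.80 and 4.09 RPKM, against 4.39 and 4.94 with PBS. These RPKM are on the scaling of all 18 tumors, which differs slightly from that of the 16 compared. None of these differences was tested. Nothing is read from the count of 7, since the 8 genes were chosen with their response to agonist known.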

How the results depend on the processing

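With 2 tumors per group, single tumors and the choice of groups fitted moved several counts. Of the 8 genes, Trim12c was no longer called between exoCDN2 and CDN2 after 2 doses (0 called) with only the groups compared, and leaving out 1 tumor gave 0 to 1. Between the second and first dose of CDN2, 1 gene was called lower with only the groups compared and 1 higher with no ratio limit. With the change between doses set relative to that of PBS, 4 were called higher and 0 lower with each agonist. Under that alternative Trim30d (2.06), Trim12c (2.16) and Trim25 (0.042) changed sign with exoCDN2, and Trim21 (0.092), Trim34a (2.02), Trim12c (1.40) and Trim25 (0.44) with CDN2. Trim34a, near 0 for CDN2, was at 0.021 by DESeq2, 0.022 with RLE factors and 0.0078 with only the groups compared.

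Leaving out 1 tumor changed the sign of small differences between exoCDN2 and CDN2 after 2 doses for Trim14 (-0.65 to 0.10), Trim21 (-0.00034 to 0.41), Trim25 (-0.18 to 0.046) and Trim30d (-0.12 to 0.37). It did so between doses of exoCDN2 for Trim14 (-0.11 to 0.64), Trim30d (-0.32 to 0.17) and Trim34a (-0.27 to 0.35), and of CDN2 for Trim34a (-0.44 to 0.27).

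Of the other 49 TRIM genes, 3 were higher after 1 dose of CDN2, 6 with pooled PBS and 5 without the filter. After 1 dose of exoCDN2 0 were lower, 1 with 18 tumors, DESeq2, no filter or the replicate block, and 2 with only the groups compared. After 2 doses of CDN2 7 were lower, 16 with no ratio limit and 3 with only the groups compared. After 2 doses of exoCDN2 1 was lower, 0 with pooled PBS or only the groups compared and 5 with no ratio limit. Leaving out 1 tumor gave 1 to 3 lower (1 dose of CDN2), 3 to 4 higher (1 dose of exoCDN2), 5 to 13 lower (2 doses of CDN2) and 0 to 1 lower (2 doses of exoCDN2). The replicate block, also in a version chosen after seeing the data that swaps the replicate numbers of the 2 tumors with 2 doses of CDN2, changed no other of these counts. The cause of these shifts was not tested.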
